A study of Mus musculus with 19 samples.

Results

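The 55 genes described here encode DNA repair proteins of 7 groups, from homologous recombination to nucleotide excision repair, and were taken from a list of symbols whose rule uses no measured value. All 55 were found among 21887 protein-coding genes of the RefSeq annotation of GRCm38.p6, the assembly also called mm10. The question for each gene was whether a peak of CBFA2T2, a corepressor of the MTG (ETO) family, lay at one of its ends in chromatin immunoprecipitation sequencing (ChIP-seq). The cells were NE-4C, a mouse neural stem cell line without p53, in which H3f3a, which encodes histone H3.3, had been knocked out. An HA-tagged H3.3 was then stably expressed, either wild-type (H3.3WT cells) or with lysine 27 changed to methionine (H3.3K27M cells). Both groups therefore share the p53 deficiency, the H3f3a knockout and a tagged transgene, whose promoter and number of clones are not given in the sources used here. The series lists 19 libraries. The values below come from 1 CBFA2T2 library per genotype, with 6920 peaks listed for H3.3WT cells against 8272 for H3.3K27M cells. Libraries of a further line, H3.3WT with Cbfa2t2 knocked out, were not analysed here, nor were those for HA and histone marks. With 1 library per genotype no difference between genotypes can be tested, and the depth of both libraries is unknown. Peak lists hold no expression, so the cell type label could not be checked against markers.

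DNA repair works through several routes. Double-strand breaks are sensed by the MRN complex and the kinases ATM and ATR, then either copied from an intact sister by homologous recombination or rejoined by end joining. The Fanconi anaemia pathway undoes crosslinks between strands, base excision repair removes damaged bases, mismatch repair corrects copying errors, and nucleotide excision repair cuts out bulky lesions such as those made by ultraviolet light. Dividing cells use all of these, and many of the genes are active in most cell types. CBFA2T2 is not known to pick DNA sites by sequence itself. Proteins of its family are brought to DNA by other factors and recruit histone deacetylases.

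A gene counted as marked if the summit of a peak, its highest point, lay within 1 kb of either annotated gene end, and where several did, the one with the largest −log10 q was taken. Of the 55 repair genes, 33 (60%) were marked in the H3.3WT list, where 24.8% of all protein-coding genes were. In the H3.3K27M list 37 (67.3%) were marked, against 28.6% of all protein-coding genes. Both lists marked 29 repair genes (52.7%, against 22.2% of all genes). A further 4 were marked in H3.3WT alone (2.6% of all genes were) and 8 in H3.3K27M alone (6.39% of all genes were), and 14 had no peak at either end. The repair genes were thus marked at more than the rate of all genes in each list. Their peaks were not tall by the standard of other marked genes. Median fold enrichment, the peak caller's ratio of ChIP signal at the summit over local background, was 5.73 in H3.3WT where all marked genes had 6.91, and 5.48 in H3.3K27M where they had 6.29. In the highest quartile of −log10 q of their list lay 5 of the 33 repair gene peaks for H3.3WT (15.2%, against 33.1% of all marked genes). For H3.3K27M it was 8 of the 37 (21.6%, against 34.0%). These are descriptions of 2 libraries, and the list of genes was chosen with earlier results of these data known.

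**Figure D1:**
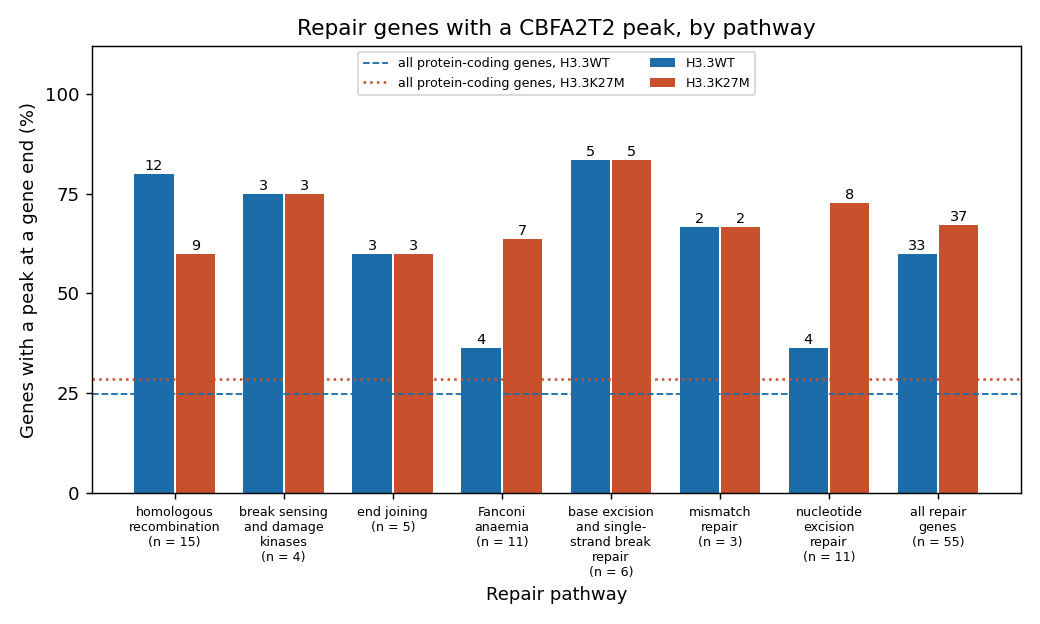
Share of repair genes with a CBFA2T2 peak at a gene end (vertical axis, %) for each repair pathway (horizontal axis, with its number of genes), as 1 bar per peak list with the count of genes on top. Dashed and dotted lines give the share of all protein-coding genes, 24.8% for H3.3WT, then 28.6% for H3.3K27M. Every pathway bar lies above its line, and the counts of the 2 lists differ in homologous recombination, Fanconi anaemia and nucleotide excision repair.

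Many marked repair genes start back to back with another gene, so the sequence that lies between the starts of both genes is shown first. The stretches below run from the neighbour's listed start to that of the repair gene, on the repair gene's strand, and all lie within a CBFA2T2 peak in both lists, except that the H3.3WT peak covers 95 bases of the Ercc8 stretch. They were read from the RefSeq promoter table on GRCm38.p6. Capitals mark matches to 1 of 10 motifs searched on both strands: CCGGAAG (ETS factors), GCATGCGC (NRF1), GGGCGG (the GC box of SP and KLF factors), CCAAT (the NF-Y box), AAGATGGC (YY1), TGACGTCA (CRE), ACTACAA (ZNF143 and THAP11), TTTNNCGC (E2F), CAGCTG (the E-box of E proteins) and CACGTG (the E-box of MYC and USF). A match is a run of letters, not a bound site, and motifs may overlap.
Brca1: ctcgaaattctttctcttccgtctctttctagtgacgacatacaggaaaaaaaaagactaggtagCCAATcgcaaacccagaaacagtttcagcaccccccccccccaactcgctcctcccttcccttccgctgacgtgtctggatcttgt
Palb2: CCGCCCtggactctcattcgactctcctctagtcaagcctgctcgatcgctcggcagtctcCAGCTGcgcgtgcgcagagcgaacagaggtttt
Atr: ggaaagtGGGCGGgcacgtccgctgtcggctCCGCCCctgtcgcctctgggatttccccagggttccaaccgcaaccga
Xrcc4: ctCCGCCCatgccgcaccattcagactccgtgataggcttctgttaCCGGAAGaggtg
Lig4: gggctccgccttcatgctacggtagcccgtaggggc
Apex1: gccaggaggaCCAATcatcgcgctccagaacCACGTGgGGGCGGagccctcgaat
Pms2: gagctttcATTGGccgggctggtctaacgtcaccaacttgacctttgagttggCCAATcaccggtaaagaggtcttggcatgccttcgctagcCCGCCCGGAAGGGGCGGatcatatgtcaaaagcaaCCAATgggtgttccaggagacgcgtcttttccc
Ercc8: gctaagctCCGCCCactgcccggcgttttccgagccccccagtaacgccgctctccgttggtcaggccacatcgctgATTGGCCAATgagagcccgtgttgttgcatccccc

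Their positions on GRCm38.p6 are Brca1 chr11:101551956-101552106 (minus strand), Palb2 chr7:122132947-122133040 (minus strand), Atr chr9:95857518-95857596 (plus strand), Xrcc4 chr13:90089609-90089666 (minus strand), Lig4 chr8:9977681-9977716 (minus strand), Apex1 chr14:50924894-50924948 (plus strand), Pms2 chr5:143909840-143910000 (plus strand) and Ercc8 chr13:108158626-108158737 (plus strand). The Brca1 stretch carries 1 CCAAT box, and the Apex1 stretch a CCAAT box, a CACGTG E-box and a GC box in a row. Pms2 has 3 CCAAT boxes and a run in which a GC box lies at each side of an ETS match, with shared bases. In Ercc8 the 2 CCAAT boxes are on opposite strands with no base between them. Lig4, whose start lies 37 bp from that of Abhd13, has no match in its stretch.

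Homologous recombination genes were marked at 12 of 15 genes in H3.3WT, against 24.8% of all protein-coding genes. In H3.3K27M 9 of 15 were marked, against 28.6%. Rad52 counted in H3.3WT alone only through the 1 kb limit, as described below. Brca1, whose product directs breaks towards recombination, held the strongest peak of the 55 genes in both lists, with a fold of 61.4 in H3.3WT against 35.9 in H3.3K27M. It ranked 7 among the 6920 peaks of H3.3WT by fold and 60 among the 8272 of H3.3K27M. The peak spanned 101551811 to 101553079 on chromosome 11 of mm10 in H3.3WT, while in H3.3K27M it spanned 101551795 to 101553080. Its summit lay 388 and 363 bp upstream of the Brca1 start, inside the neighbour Nbr1, an autophagy receptor gene, at 236 and 211 bp past the Nbr1 start. The next of the 55 by fold in H3.3WT, at Xrcc1, had 21.9. Brca2, which loads the recombinase onto DNA, had 10.03 and 5.63, and Palb2, which joins BRCA1 to BRCA2, had 8.41 and 10.3 at a start shared with Dctn5.

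Among the paralogues of the recombinase, Rad51b had a fold of 5.01 in H3.3WT against 8.13 in H3.3K27M. A second H3.3K27M peak of 7.55 fold lay 964 bp upstream. Its summit, at 79296318, was next to the listed start of the neighbour Zfyve26 at 79296282. Rad51c had 3.98 and 4.77 near its neighbour Tex14, and Xrcc2 had 5.02 and 4.41. Xrcc3 had 5.69 in H3.3WT and no peak at an end in H3.3K27M. Rad51d had none in either list, and its nearest peak, of 4.01 fold in H3.3WT, lay 4998 bp outside the gene. Rad51b also held a peak far inside the gene, 186708 bp from its nearest end in H3.3WT with 8.59 fold and 186723 bp in H3.3K27M with 7.25 fold. The motor protein gene Rad54l had 6.40 and 5.87. Of the RecQ helicases, Blm had 5.23 and 5.14, and Wrn 5.29 and 5.31 at an end shared with Purg. Brip1, a helicase that binds BRCA1, had 4.74 in H3.3WT alone. Rad52, which anneals single strands, had 4.44 in H3.3WT. An H3.3K27M peak of 4.98 fold at the same place in Rad52 fell just outside the 1 kb limit. Bard1, the partner of BRCA1, and Rbbp8, which starts the trimming of broken ends, had no peak at an end. Rbbp8 held a weak internal peak of 2.95 fold in H3.3K27M.

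**Figure D2:**
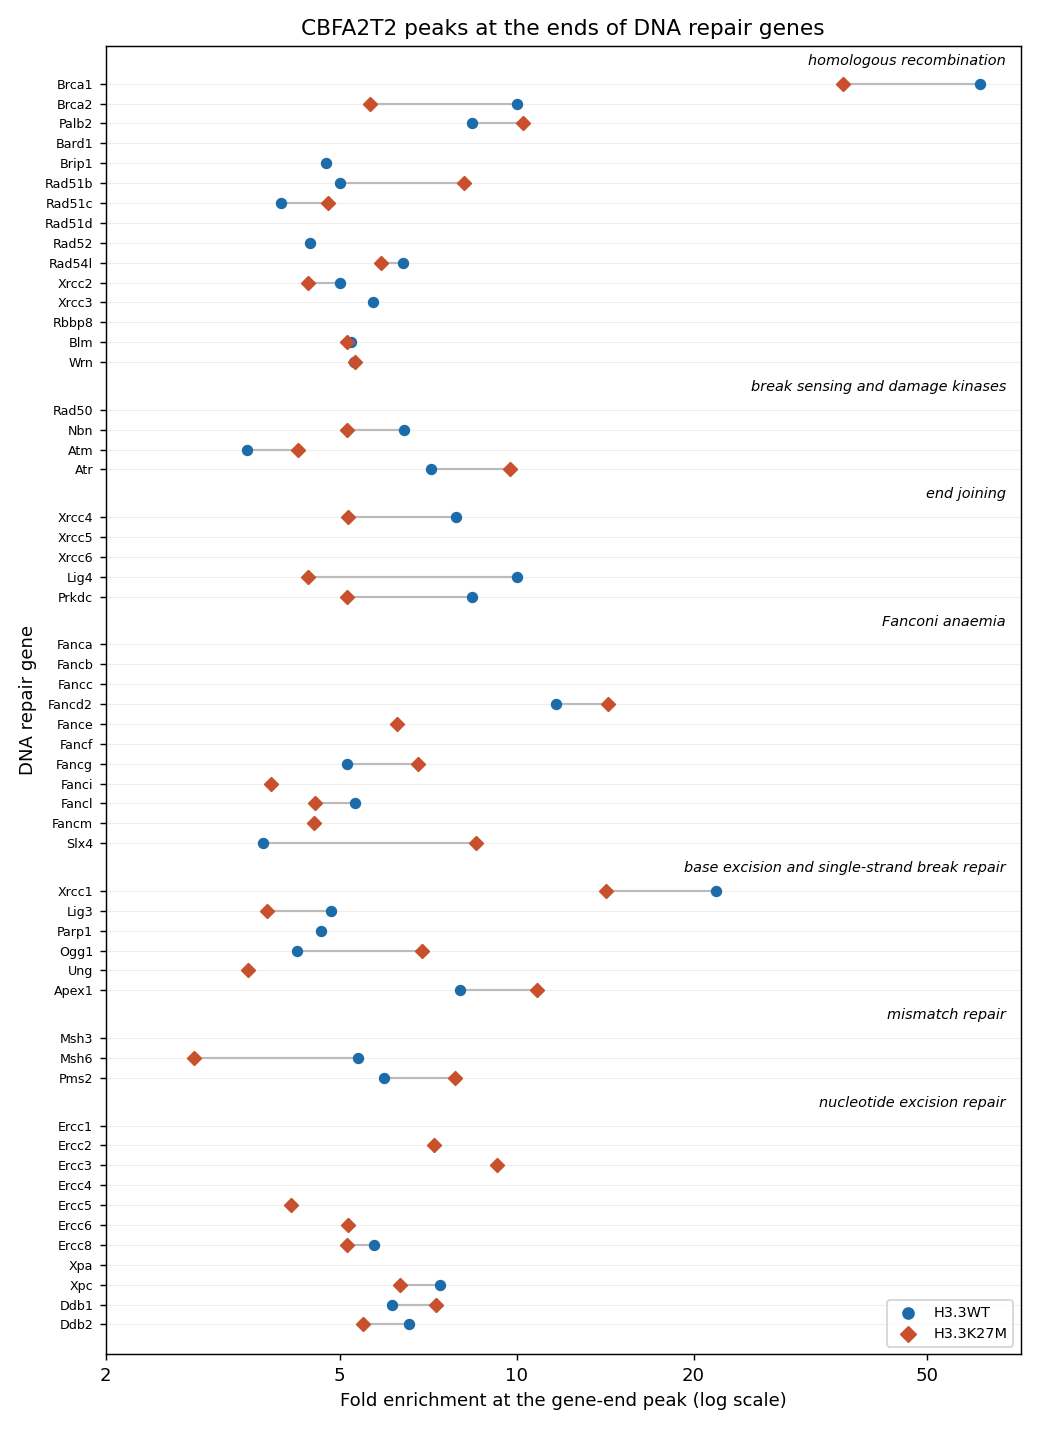
Fold enrichment of the peak at a gene end (horizontal axis, log scale) for each of the 55 repair genes (vertical axis, grouped by pathway), with a circle for H3.3WT and a diamond for H3.3K27M, joined where both exist. Rows without a marker had no peak at an end. Brca1 stands alone at 61.4 and 35.9, Xrcc1 and Fancd2 follow, and most others lie below 10.

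Break sensing and damage signalling genes were marked in both lists at 3 of 4 members, against 22.2% of all protein-coding genes. Atr, the kinase of stalled replication forks, had the highest of these with 7.14 fold in H3.3WT against 9.74 in H3.3K27M, and its start lies 80 bp from that of 1700065D16Rik. Nbn, a subunit of the MRN complex, had 6.44 and 5.15. Atm, the kinase of double-strand breaks, had low peaks of 3.47 and 4.25 at an end shared with Npat, a regulator of histone gene transcription, and stood at percentile 9.32 and 23.9 by −log10 q. Rad50, another MRN subunit, had no peak.

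End joining genes were marked at the same 3 of 5 members in both lists, against 22.2% of all protein-coding genes. Lig4, the ligase that seals broken ends, had 10.03 fold in H3.3WT against 4.42 in H3.3K27M. Prkdc, the catalytic subunit of DNA-dependent protein kinase, had 8.40 and 5.14 at an end shared with the replication gene Mcm4. Xrcc4, the partner of LIG4, had 7.87 and 5.16. In all 3 the fold in the H3.3WT list was the larger, and over the 29 repair genes marked in both lists it was the larger in 16, or 55.2%, against 53.4% of the 4857 protein-coding genes marked in both. Folds of separately called lists are not scaled to each other. Xrcc5 and Xrcc6, which encode the Ku subunits that grip free ends, had no peak in either list.

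Fanconi anaemia genes were marked at 4 of 11 genes in H3.3WT, against 24.8% of all protein-coding genes. In H3.3K27M 7 of 11 were marked, against 28.6%. Over all protein-coding genes, 2.6% were in H3.3WT alone and 6.39% in H3.3K27M alone. Fancd2, a subunit of the clamp that is ubiquitinated at crosslinks, had the strongest peak of the Fanconi anaemia genes. It had 11.7 fold in H3.3WT against 14.3 in H3.3K27M, at an end shared with Emc3. By −log10 q it stood at percentile 92.1 and 94.4, second among the 55 genes in both lists after Brca1. The clamp's other subunit gene, Fanci, had 3.82 fold in H3.3K27M alone. Slx4, the scaffold for crosslink nucleases, had 3.71 and 8.54, Fancg of the core complex 5.15 and 6.79, and the ubiquitin ligase gene Fancl 5.31 and 4.53. Fance, another core subunit, had 6.26 fold in H3.3K27M alone, and the translocase gene Fancm 4.53. The core genes Fanca, Fancb, Fancc and Fancf had no peak at an end. Fancc held an internal peak of 7.71 fold in H3.3WT that lay 12 bp from the listed start of the gene and 65559 bp from its nearest annotated end.

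Base excision and single-strand break repair genes were marked at 5 of 6 members in each list, 4 of them in both. Of all protein-coding genes, 24.8% were marked in H3.3WT, 28.6% in H3.3K27M and 22.2% in both. Those in H3.3WT alone made up 2.6% and those in H3.3K27M alone 6.39%. Xrcc1, the scaffold of single-strand break repair, had 21.9 fold in H3.3WT against 14.2 in H3.3K27M, with the summit 454 bp downstream of the start in both and the end of Pinlyp nearby. Its partner ligase gene Lig3 had 4.82 and 3.76. Apex1, the endonuclease that cuts at sites without a base, had 8.02 and 10.8. Ogg1, the glycosylase for oxidised guanine, had 4.23 and 6.90. The break sensor gene Parp1 had 4.65 fold in H3.3WT alone. Ung, the uracil glycosylase gene, had 3.49 in H3.3K27M alone, 764 bp past its start and near the end of Alkbh2.

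Of the mismatch repair genes listed, Pms2, which cuts the new strand, had 5.94 fold in H3.3WT against 7.84 in H3.3K27M at a start next to that of Aimp2. Msh6, of the complex that recognises single mispairs, had 5.37 and 2.83. The H3.3K27M peak at Msh6 was the weakest among the 55 genes in either list, with a −log10 q of 1.88 where the lowest value in that list was 1.31. Msh3, of the complex for larger loops, had none.

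Nucleotide excision repair genes were marked at 4 of 11 genes in H3.3WT, against 24.8% of all protein-coding genes. In H3.3K27M 8 of 11 were marked, against 28.6%. Of those marked in both, Xpc, which recognises distorted DNA, had 7.40 fold in H3.3WT against 6.34 in H3.3K27M at an end shared with the RNA processing gene Lsm3. Ddb1 had 6.14 and 7.29, Ddb2, its partner in the sensor of ultraviolet damage, 6.57 and 5.48, and Ercc8, which acts at stalled transcription, 5.73 and 5.14. Over all protein-coding genes, 6.39% were in the H3.3K27M list alone and 2.6% in the H3.3WT list alone. The other 4 nucleotide excision genes were in the H3.3K27M list alone. They were Ercc3 with 9.28 fold and Ercc2 with 7.24, which encode the helicases of the general transcription factor TFIIH, Ercc6 with 5.17, which acts at stalled RNA polymerase, and the nuclease gene Ercc5 with 4.14. Xpa, Ercc4 and Ercc1 had no peak within 1 kb of an end.

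The 12 repair genes marked in a single list are given by pathway. Of the 4 in H3.3WT alone, Brip1, Rad52 and Xrcc3 belong to homologous recombination and Parp1 to single-strand break repair. Of the 8 in H3.3K27M alone, 4 belong to nucleotide excision repair, 3 to the Fanconi anaemia pathway and 1, Ung, to base excision. None of the 12 peaks was in the highest quartile of its list. The 4 in H3.3WT ran from the 15.4 to the 46.2 percentile of −log10 q in their list and the 8 in H3.3K27M from the 16.2 to the 64.0 percentile. Repair genes marked in both lists had a median percentile of 54.0 in H3.3WT against 61.8 in H3.3K27M. Over all protein-coding genes, those marked in H3.3WT alone had a median percentile of 20.2 and those in H3.3K27M alone 25.6. Which genes stood in a single list changed with the way of counting. Under all 8 ways of counting that were tried, Xrcc3 was marked in H3.3WT alone and Ercc2, Ercc3 and Ercc6 in H3.3K27M alone. Brip1 and Fance were so under 7 of the 8, Parp1, Fanci and Fancm under 6, Ercc5 under 5, Ung under 4 and Rad52 under 3.

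**Figure D3:**
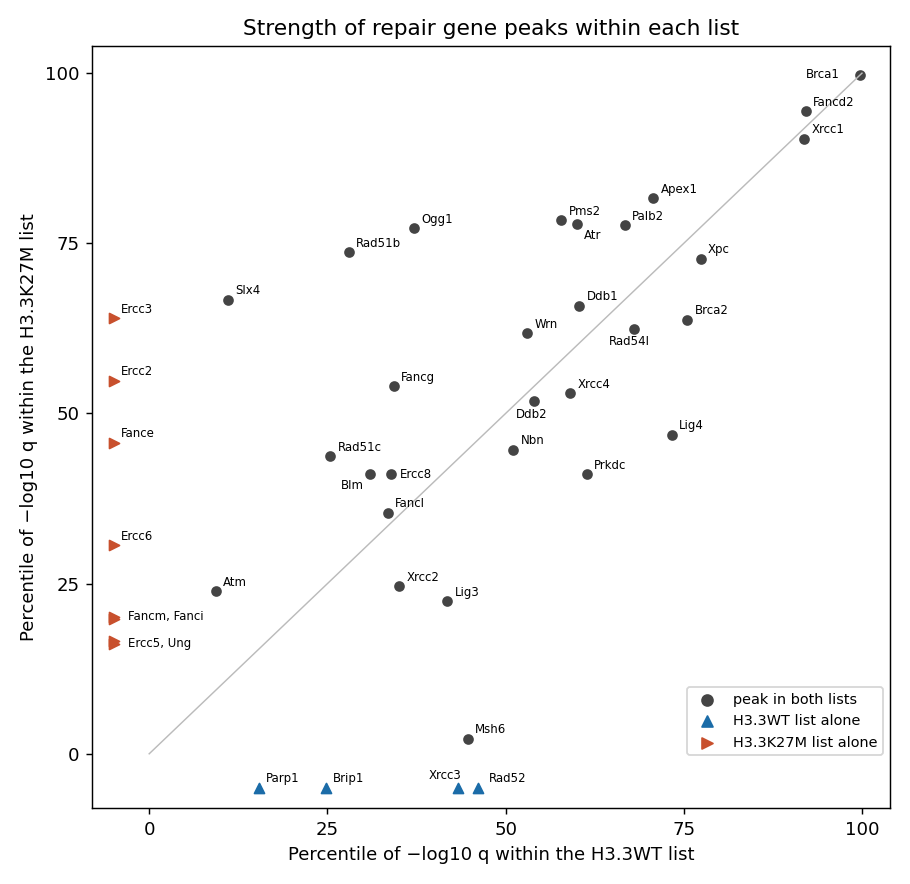
Percentile of −log10 q of each repair gene's peak within the H3.3WT list (horizontal axis) and the H3.3K27M list (vertical axis). Circles are the 29 genes marked in both, and triangles in the margins are the 4 and 8 genes of a single list, placed by their percentile in it. Of these genes Brca1, Fancd2 and Xrcc1 stand highest in both lists, Slx4 stands at 11.05 and 66.7, and Msh6 at 44.7 and 2.19.

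Promoters of genes marked in a single list are shown for the 4 with the highest −log10 q whose summit fell inside the tabled promoter window. Each stretch holds the 200 bases before the listed start, with motif matches in capitals as above. The stretches of Ercc2 and Xrcc3 lie wholly within their peak, while 115 bases of Rad52 and 63 of Fanci do. The Rad52 stretch is also overlapped by an H3.3K27M peak, from 119902559 to 119903101 on chromosome 6. That peak was not counted because its summit lay more than 1 kb from the gene end.
Ercc2: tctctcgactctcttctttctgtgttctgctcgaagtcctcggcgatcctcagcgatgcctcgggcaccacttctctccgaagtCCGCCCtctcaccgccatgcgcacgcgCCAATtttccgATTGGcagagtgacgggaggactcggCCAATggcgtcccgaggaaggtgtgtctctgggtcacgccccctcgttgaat
Xrcc3: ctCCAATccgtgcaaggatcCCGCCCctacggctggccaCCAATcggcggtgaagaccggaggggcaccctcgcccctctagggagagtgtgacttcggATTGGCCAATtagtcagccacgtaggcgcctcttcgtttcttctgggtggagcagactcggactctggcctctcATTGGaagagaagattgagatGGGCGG
Rad52: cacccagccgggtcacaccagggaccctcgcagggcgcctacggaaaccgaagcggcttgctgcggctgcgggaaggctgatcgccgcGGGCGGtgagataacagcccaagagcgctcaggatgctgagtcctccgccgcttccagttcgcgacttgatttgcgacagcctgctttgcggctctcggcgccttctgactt
Fanci: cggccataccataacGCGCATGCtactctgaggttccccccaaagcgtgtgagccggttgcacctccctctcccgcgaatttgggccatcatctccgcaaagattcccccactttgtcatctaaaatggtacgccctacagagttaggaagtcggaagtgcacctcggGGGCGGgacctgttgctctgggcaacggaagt

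These lie at Ercc2 chr7:19381817-19382016 (plus strand), Xrcc3 chr12:111813880-111814079 (minus strand), Rad52 chr6:119902498-119902697 (plus strand) and Fanci chr7:79392138-79392337 (plus strand) of GRCm38.p6. Ercc2 and Xrcc3, one in each list, both carry several CCAAT boxes, 3 in Ercc2 and 5 in Xrcc3. Rad52 has a single GC box, and Fanci has an NRF1 match and a GC box.

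The 1 kb limit decided some of these calls. Rad52 was marked in H3.3WT with its summit 984 bp inside the annotated end, while the H3.3K27M peak at the same place had its summit 1042 bp inside, with 4.98 fold. Both lay close to the listed start of Rad52, at 8 and 66 bp from it. Ercc1, the partner of the ERCC4 nuclease, held peaks of 8.57 fold in H3.3WT against 5.16 in H3.3K27M whose summits were 1076 and 1141 bp from its end and 72 and 137 bp from its listed start. Counted from gene ends or listed starts together, 35 repair genes were marked in H3.3WT and, in H3.3K27M, 39, with 4 and 8 in a single list, Fancc taking the place of Rad52 among the former. This way of counting was chosen after the values were seen.

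Strand and transcription starts were listed for 44 of the 55 genes. Among their peaks, 25 of 26 summits (H3.3WT) and 27 of 29 (H3.3K27M) lay within 1 kb of a listed start, and 21 (80.8%) and 22 (75.9%) within 250 bp. Over all marked genes with a listed start, 92.8% and 92.3% lay within 1 kb, and 79.2% and 78.1% within 250 bp. The exceptions were Slx4 in both lists, 2169 and 2172 bp upstream of its listed start, and Fancm in H3.3K27M, 1941 bp upstream. The listed start of Slx4 lies inside the annotated gene, and its summits were 18 and 21 bp from the annotated upstream end. The Fancm summit was 448 bp from its annotated end. A further Fancm peak, also of 4.53 fold, lay 109 bp upstream of the listed start. The median distance of a summit from the start was 95 bp in H3.3WT and 98 bp in H3.3K27M, against 92 and 98 bp over all marked genes. In the 29 genes marked in both lists the peaks overlapped in every case by at least 1 bp. Their summits were a median of 31 bp apart, against 41 bp over all genes marked in both. Summits at Xrcc1 coincided, those at Wrn, Slx4 and Lig4 were 2, 3 and 4 bp apart, and those at Atm were the farthest apart at 335 bp.

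**Figure D4:**
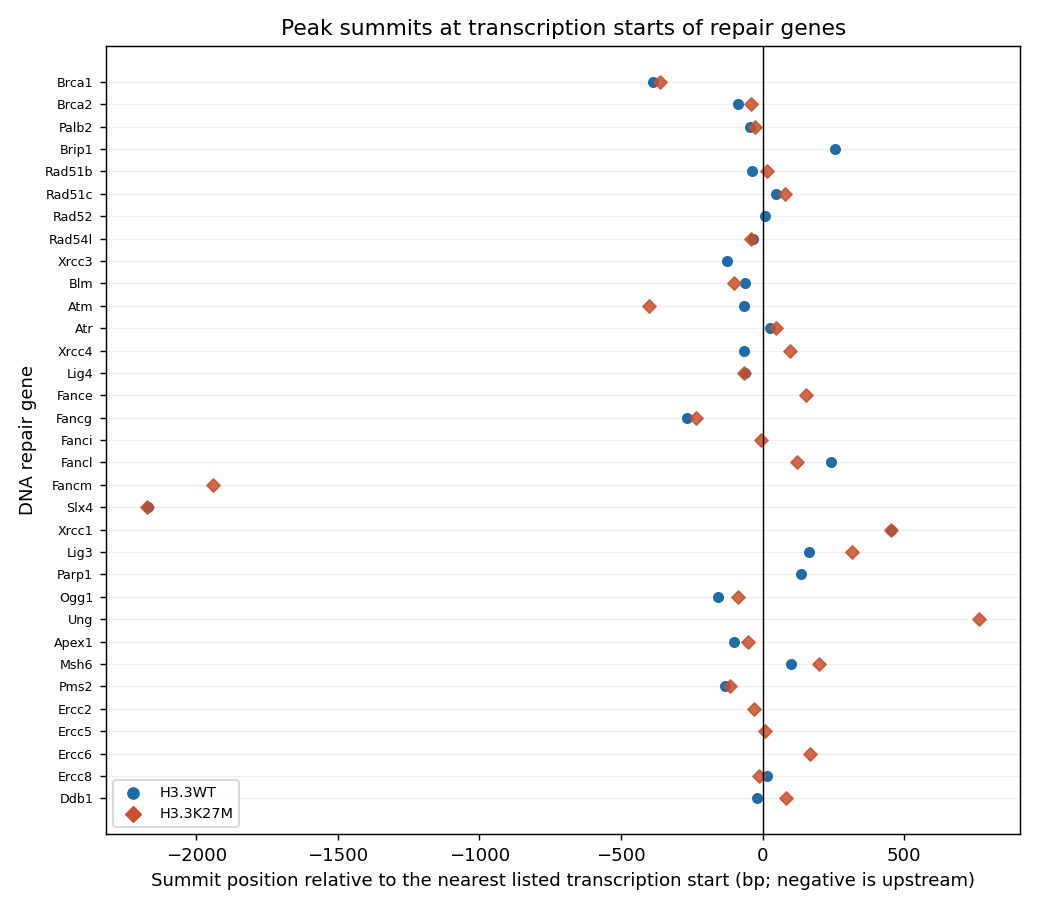
Position of the peak summit relative to the nearest listed transcription start (horizontal axis, bp, negative is upstream) for each marked repair gene with a listed start (vertical axis), with a circle for H3.3WT and a diamond for H3.3K27M. Most summits lie within 250 bp of the start, while those of Slx4 and the Fancm peak stand about 2 kb upstream. The Slx4 summits lie 18 and 21 bp from the annotated gene end.

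Back-to-back starts were common among these genes. A listed start of another protein-coding gene lay within 1 kb upstream on the opposite strand for 15 of the 44 repair genes (34.1%), against 8.48% of 17492 protein-coding genes with listed starts. Of these 15, 13 were marked in either list (86.7%), against 79.2% of all 1483 genes with such a partner. The 13 were Brca1, Palb2, Rad51b, Rad51c, Xrcc3, Atm, Atr, Xrcc4, Lig4, Xrcc1, Apex1, Pms2 and Ercc8, and the unmarked 2 were Fancb and Xrcc6. Among the 29 repair genes without such a partner, 20 were marked in either list (69.0%), against 27.8% of all 16009 such genes. A single peak between paired starts counts for both genes. The peak was shared with the end of another protein-coding gene at 18 of the 33 repair genes marked in H3.3WT (54.5%) and at 20 of the 37 marked in H3.3K27M (54.1%), against 36.8% and 34.7% of all marked genes. Besides the neighbours named so far, such genes were Zfyve21 at Xrcc3, Tmem167 at Xrcc4, Osgep at Apex1, Ndufaf2 at Ercc8, Tkfc at Ddb1, Rlbp1 at Fanci and Fkbp3 at Fancm. Brca2, Rad54l, Blm, Nbn and Ogg1 are among those that had a peak of their own.

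Promoter sequence was compared with that of all protein-coding genes over the tabled 300 bases, 250 before and 50 after each listed start. The 48 promoters of the 44 repair genes had a median GC content of 59.8%, against 56.3% for 21263 promoters of all protein-coding genes and 60.7% for 4912 promoters of genes marked in both lists. A CCAAT box was present in 29 of the 48 (60.4%), against 38.2% of all promoters and 39.4% of those marked in both lists. It was in 8 of 11 promoters of unmarked repair genes and in 15 of 26 of those marked in both lists. Unmarked genes can still hold a peak at a listed start. Fancc, which carries the box, had an H3.3WT peak 12 bp from its listed start. The ETS letters were in 12 of 48 (25%), against 11.6% and 27.1%. They were in 9 of 26 promoters of repair genes marked in both lists and in 1 of 11 of unmarked ones. That 1 was Ercc1, whose uncounted peaks lay 72 bp (H3.3WT) and 137 bp (H3.3K27M) from its listed start. E2F letters were found in 10 of 48 (20.8%, against 6.24% and 11.1%), among them Brca2, Brip1, Rad51c, Bard1 and Msh6. NRF1 letters were in 7 (14.6%, against 3.52% and 6.39%) and GC boxes in 34 (70.8%, against 46.2% and 62.9%). The YY1 letters were in none of the 48, against 3.05% and 7.17%. CACGTG was in 14.6% of the repair gene promoters (7.84% of all, 11.8% of those marked in both lists) and CAGCTG in 16.7% (15.6% and 12.7%). Some genes have more than 1 listed promoter, and both may carry the same motif. Lig4 is counted with both of its promoters for the E-box of E proteins and for the ETS letters. Rad51b is counted so for that E-box, the NF-Y box and the ZNF143 and THAP11 letters. Rad51c is counted so for the E2F letters and the GC box, and Rad54l for the GC box and the NF-Y box. The promoter counts of these motifs are therefore higher than the numbers of genes that carry them. ACTACAA was in 6.25% (3.60% and 7.90%) and TGACGTCA in 4.17% (2.23% and 4.58%). Promoters that share bases between paired genes are not independent, and no motif was tested.

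**Figure D5:**
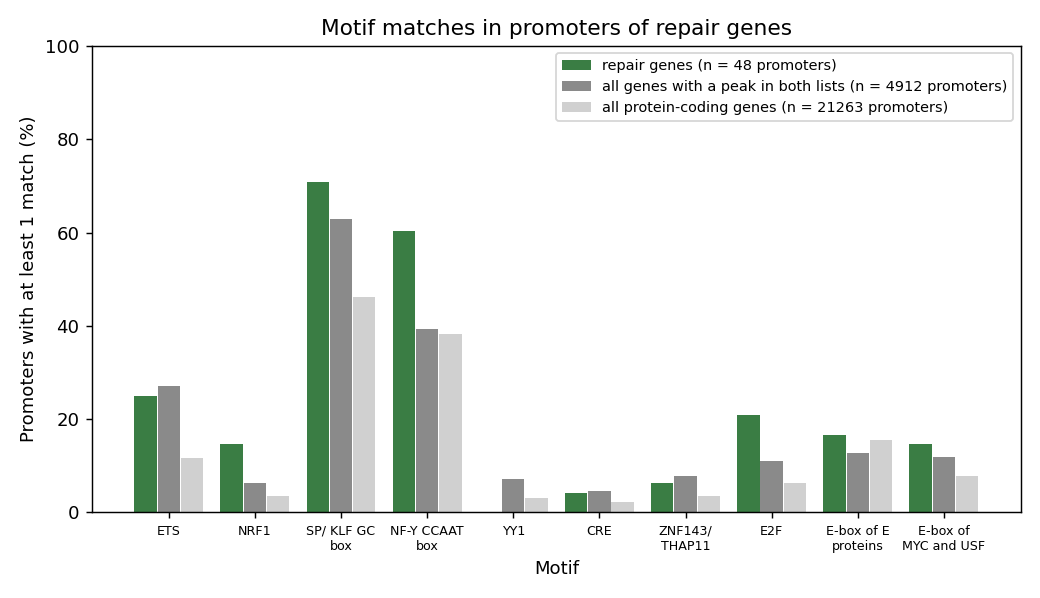
Share of promoters with at least 1 match to each motif (vertical axis, %) for repair genes, for all genes marked in both lists and for all protein-coding genes. Repair gene promoters stand above both references for the CCAAT box (60.4%), the GC box (70.8%), E2F (20.8%), NRF1 (14.6%) and CACGTG (14.6%). CAGCTG was in 16.7% of them, against 15.6% of all promoters, with both promoters of Lig4 and of Rad51b counted. They have no YY1 match.

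A wider list of other damage signalling and repair genes was counted in the same way. In H3.3WT 67 of them were marked (63.8%, against 24.8% of all protein-coding genes) and in H3.3K27M 79 (75.2%, against 28.6%). Both lists marked 64 (61.0%, against 22.2%), while 3 were in H3.3WT alone, 15 in H3.3K27M alone and 23 in neither. Over all protein-coding genes, 2.6% were in H3.3WT alone and 6.39% in H3.3K27M alone, whose list is the longer. The genes of the wider list had shares no lower than the 60%, 67.3% and 52.7% of the 55 in H3.3WT, H3.3K27M and both lists. Their median fold was 7.66 and 6.47, above the 5.73 and 5.48 of the 55. Checkpoint genes were marked at 13 and 17 of 20, led by the clamp loader gene Rad17 (35.8 fold in H3.3WT against 23.8 in H3.3K27M). Further recombination genes were marked at 14 and 15 of 19, among them the helicase gene Recql5 (27.1 and 30.4). Further nucleotide excision genes were marked at 10 and 11 of 15, with Xab2 (21.7 and 47.8) and the TFIIH subunit gene Gtf2h3 (27.4 and 21.3) highest. Further base excision genes were marked at 10 of 16 in each list, 9 of them shared, with the flap endonuclease gene Fen1 at 19.4 and 30.5 fold. Additional end joining genes were marked at 4 and 8 of 10, Fanconi anaemia genes at 5 and 6 of 9, and genes of translesion synthesis and direct reversal at 10 and 12 of 14. Mlh3 and Pms1 completed the list with 1 of 2 marked in H3.3WT and none in H3.3K27M. By fold, Rad17 stayed below Brca1 in both lists, while Xab2 stood above it in the H3.3K27M list.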

How the data were processed

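The submitters' processing notes name Trim Galore, MACS2 and mm10. Each list comes from 1 ChIP library against an input, per the deposited peak names, which carry the code Z3q where the labels say CBFA2T2; what Z3q stands for, aligner, duplicate handling and settings are not given in the sources used here. The deposited score, which is −log10 q times 10 without decimals, was not used. Fold enrichment, a ratio, and −log10 p and −log10 q are the authors' deposited values per peak. They rank peaks within a list; where folds of both lists are set side by side, they are not scaled to each other. The smallest deposited −log10 q were 1.33 (H3.3WT) and 1.31 (H3.3K27M).

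Gene ends came from RefSeq, GRCm38.p6, and strands, starts and promoter sequences from the RefSeq promoter table of that build (44 of 55 genes matched). Python 3.11.15 with pandas 2.3.3 assigned summits to genes, which was tested on simulated data. No test was run, as each genotype has 1 library; groups follow the titles in the labels. Alternatives were windows of 500 bp and 3 kb, −log10 q or fold of at least 5, equal list lengths, any part of a peak, and overlap of at least 50%. Counting from listed starts was added after seeing the data. Genes and lists were chosen with earlier results of these data known. Every gene with a peak at an end is named, with up to 4 of the other repair genes per list by −log10 q. The rule for sequences asked for the 4 genes with the best summed rank of −log10 q (Brca1, Fancd2, Xrcc1, Apex1). Fancd2 has no tabled promoter and the Xrcc1 stretch lies outside its peak, so neither is shown. The other stretches between paired starts were chosen after values were seen, leaving out Rad51c, whose stretch also lies outside its peak. Those between the paired starts of Atm, Rad51b and Xrcc3 are not shown either. Genes, peaks and promoters are not replicates.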

Additional observations from a re-analysis of the deposited data

How the results depend on the processing

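All 54 values that the alternatives gave for 10 results stayed within 1.5 times those reported. Marked repair genes ranged from 25 (peaks of at least 5 fold) to 35 (3 kb, or gene ends and listed starts together) in H3.3WT, those in H3.3K27M from 26 to 39, and genes marked in both lists from 20 to 32. The share of all protein-coding genes was not counted again under these alternatives. How far the repair genes stood above it there is not known. H3.3WT alone held 3 to 5 genes and H3.3K27M alone 6 to 8, but which genes they were changed. With peaks of at least 5 fold, Fancl, Lig4, Msh6, Xrcc2 and Xrcc3 stood in H3.3WT alone and Ercc2, Ercc3, Ercc6, Fance, Ogg1 and Slx4 in H3.3K27M alone. With equal list lengths of 6920 peaks, the H3.3K27M peaks at Msh6 and Ung were lost. No paired analysis was possible because each genotype has 1 CBFA2T2 library and no result comes from a test. Reads and replicates were not used here, so depth and replicate spread, which limit every comparison between the lists, are unknown.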

Other observations

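Some repair genes carried exactly the same deposited values in the H3.3K27M list. Blm, Prkdc and Ercc8 each had a fold of 5.14 and a −log10 q of 7.49, and 26 peaks of that list shared this pair of values. In the H3.3WT list the same genes had 5.23, 8.40 and 5.73 fold.

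Some repair genes had further peaks within 5 kb, at the ends of other genes. At 3821 and 3803 bp past Apex1, the end of Pip4p1 held a peak of 15.1 fold (H3.3WT) and 8.29 fold (H3.3K27M). At 4007 and 4027 bp past Ercc1, the end of Ppp1r13l, which encodes an inhibitor of p53, held 8.07 and 11.9 fold. The ribosomal protein gene Rpl10a, 1988 and 1966 bp past Fance, held 3.47 and 7.84 fold.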
